A study of Arabidopsis thaliana with 6 samples.

Results

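Ribosome footprints of Arabidopsis thaliana leaf mitochondria were compared between plants of a heterozygous rps10 mutant and wild-type plants. The libraries were chosen by their labels as ribosome-protected footprints, which are 3 of the 6 libraries of the series. They are 1 library of the P2 phenotype of the Rps10 +/- mutant, 1 library of its P3 phenotype and 1 library of wild type. All plants were of ecotype Col-0, the tissue was the youngest leaves at 9 to 10 weeks of age, and each library pooled 15 mitochondrial preparations. Plants grew at 22 °C with 8 h of light and 16 h of dark. Nuclease was applied at 0.3 U per OD260 unit for all 3 footprint libraries. Seedlings of both mutant phenotypes were selected on kanamycin at 50 mg per litre, and about 15 g of mutant leaves went into an isolation, against about 30 g of wild-type leaves. Both phenotypes belong to 1 mutant, so they are not independent mutants, and what sets them apart is not stated in the labels. Chloramphenicol, an inhibitor of translation in organelles, was added at 100 µg per ml to the mitochondria of all 3 libraries when they were taken from storage, not to the plants. Genotype, kanamycin and the amount of leaf cannot be told apart in this design. With 1 library per group there was no replicate check and no test between groups, and both mutant libraries were set against the same wild-type library. The level of RPS10 itself, a nuclear gene, was not analysed here.

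Plant mitochondria keep a small genome and their own ribosome. The genome codes for core subunits of the respiratory complexes and of ATP synthase, for factors that attach heme to cytochromes c, and for some proteins of the mitochondrial ribosome itself. RPS10 protein belongs to the small subunit of that ribosome, and most of the other ribosomal proteins are likewise made in the cytosol and imported. In ribosome profiling, nuclease removes the RNA that ribosomes do not cover, and the protected pieces are sequenced. Ribosomes move by codons, so footprints on a translated sequence gather in 1 of the 3 frames, here frame 0.

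Almost all reads of the mutant libraries came from mitochondria, and very few lay on coding sequences (CDS). Mitochondrial sequences of all kinds made up 91.8% of the reads after trimming in P2, 89.4% in P3 and 65.3% in wild type. Of 15131283 reads in P2, 80146 lay on mitochondrial CDS, as did 48653 of 11956216 reads in P3 and 416254 of 7744978 reads in wild type. These are 0.530% of the reads (95% Wilson interval 0.526 to 0.533) in P2, 0.407% (0.403 to 0.411) in P3 and 5.37% (5.36 to 5.39) in wild type. The share of CDS footprints was thus 0.0986-fold the wild-type share in P2 and 0.0757-fold in P3. Reads elsewhere in the mitochondrial genome, apart from tRNA and rRNA, had shares much closer to wild type. They numbered 381814 in P2, 278786 in P3 and 248905 in wild type, or 2.52% (2.52 to 2.53), 2.33% (2.32 to 2.34) and 3.21% (3.20 to 3.23) of the reads. For every 100 reads on the mitochondrial genome outside CDS there were 21.0 CDS reads in P2, 17.5 in P3 and 167 in wild type. In mutant footprints, reads outside CDS therefore outnumbered those on CDS, and in wild-type footprints the order was the opposite.

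Reads of the other compartments were also scarcer in the mutant libraries. The nuclear genome outside tRNA and rRNA gave 1.90% of the reads in P2, 1.77% in P3 and 14.0% in wild type, and the plastid genome gave 0.279%, 0.327% and 1.43%. Mitochondrial tRNA and rRNA took 4669 reads per 100 nuclear-genome reads in P2, 4902 in P3 and 404 in wild type. The size of the CDS difference therefore depends on what it is set against. Per nuclear-genome read, CDS footprints were 0.728-fold the wild-type value in P2 and 0.601-fold in P3, at 27.9, 23.0 and 38.3 CDS reads per 100 nuclear reads. On the same scale the reads outside CDS were 5.80-fold higher in P2 and 5.76-fold higher in P3, at 133, 132 and 22.9 per 100. Per read of mitochondrial tRNA and rRNA, CDS footprints in wild type were 15.9-fold those of P2 and 20.2-fold those of P3. CDS footprints were below wild type on each of these scales. The part that leaf amount, rRNA depletion or other cell compartments had in these differences was not tested. Mitochondria per leaf and footprints per mitochondrion were not measured, since each value here is relative to other reads of the same library.

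**Figure D1:**
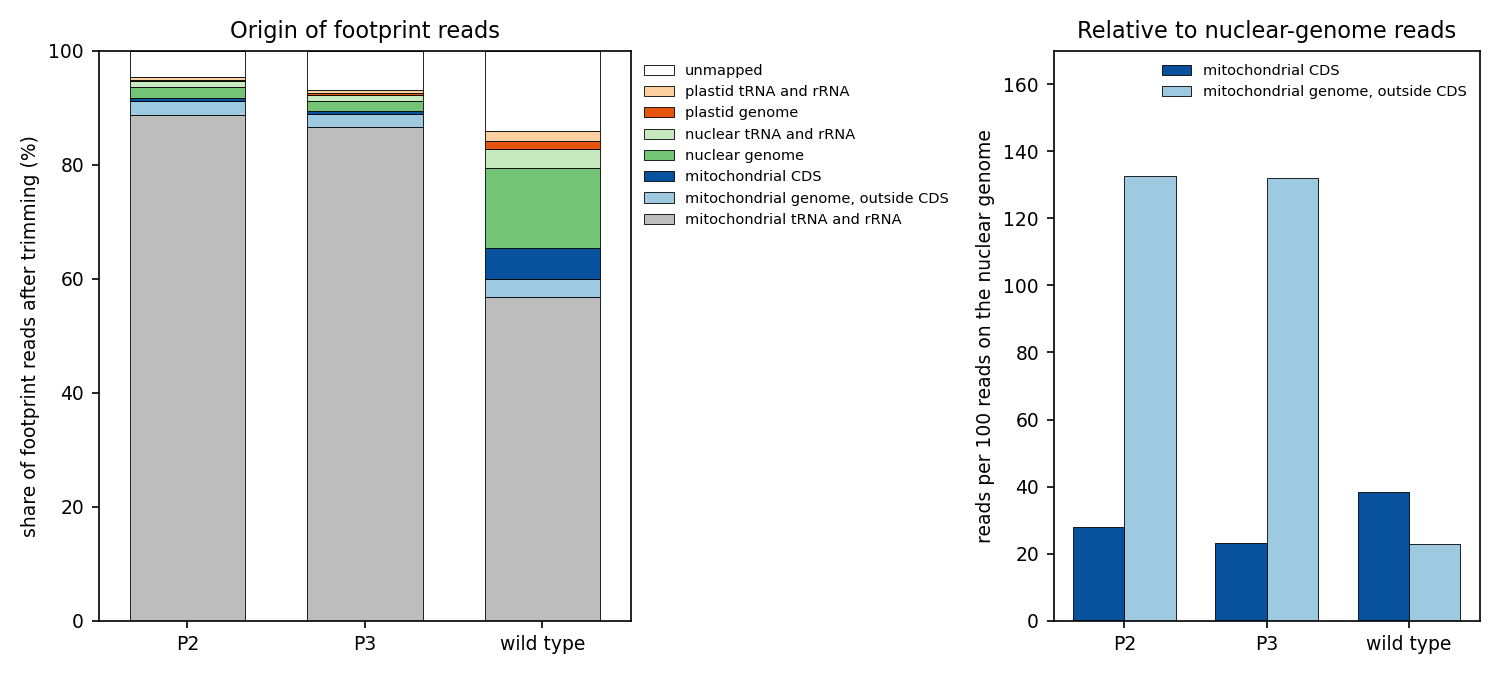
Left, share of each class of sequence among the footprint reads after trimming (%), as stacked bars for P2, P3 and wild type. Right, reads on mitochondrial CDS (dark blue) and on the mitochondrial genome outside CDS, tRNA and rRNA (light blue) per 100 reads on the nuclear genome. Each bar is 1 library. Reads outside CDS stand at 133 in P2 and 132 in P3, far above the 22.9 of wild type, while CDS reads are lower in both mutant libraries.

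The quality of the matches on the mitochondrial genome differed less between the libraries. Among mitochondrial-genome reads other than tRNA and rRNA, 82.5% matched perfectly in P2, 80.0% in P3 and 76.4% in wild type, and the rest had mismatches. Unique positions were found for 88.5% of these reads in P2, 88.5% in P3 and 89.4% in wild type. Unmapped reads were 4.60% of all reads in P2, 6.85% in P3 and 14.2% in wild type. With mitochondrial tRNA and rRNA reads left out, the unmapped share was instead higher in the mutant. It was then 40.8% in P2, 51.2% in P3 and 32.7% in wild type. Apart from the shares of uniquely placed reads in P2 and P3, the Wilson intervals of these shares did not overlap between libraries. Such intervals cover counting error only, since reads copied by amplification are not independent molecules.

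Levels were given as TPM, a transcript measure adjusted for gene length, for 24 genes of the mitochondrial genome, all of which had a value in each library and none of which was left out. TPM sum to 1000000 over these 24 genes in each library, so a level is a gene's part of the footprints on them, per length, and not an amount per mitochondrion. The footprints were spread over more genes in the mutant. It took 15 genes to hold 90% of the summed TPM in P2, 15 in P3 and 10 in wild type. The highest gene stood 67.3-fold above the lowest in P2 (cox3 over ccmB), 42.8-fold in P3 (cox3 over ccmB) and 1129-fold in wild type (atp9 over matR). The 5 leading genes in P2 were cox3, atp9, rpl16, atp1 and rps12. In P3 they were cox3, rpl16, rps12, atp1 and atp9, and in wild type atp9, atp1, cox1, atp4 and nad3. A pair of ribosomal protein genes thus stood among the leading 5 in each mutant library, and only respiratory and ATP synthase genes did so in wild type. By a rule of at least 1.5-fold, 14 genes were higher and 7 lower in P2, which is 58.3% and 29.2% of the genes, and the same 14 and 7 genes passed in P3 (again 58.3% and 29.2%). The median log2 ratio over all 24 genes was 1.30 in P2 and 1.32 in P3, and the ratios of single genes are to be read beside it.

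**Figure D2:**
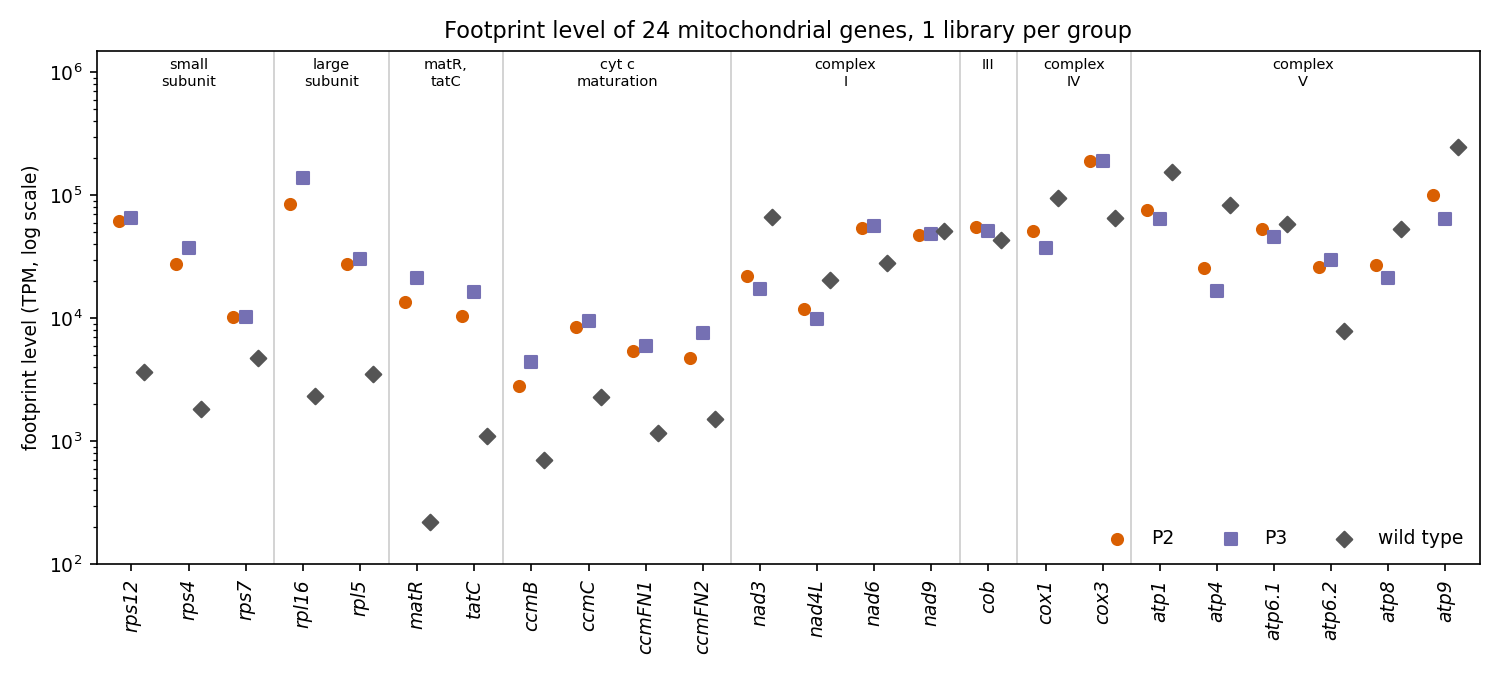
Footprint level of each gene in TPM, on a log scale, grouped by function. Circles are P2, squares P3 and diamonds wild type, with 1 library each. Ribosomal, matR, tatC and cytochrome c maturation genes lie higher in both mutant libraries, from 10182 TPM (rps7 in P2) to 138128 TPM (rpl16 in P3) for the ribosomal genes, and atp1, atp4, atp8 and atp9 lie lower.

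Genes for proteins of the mitochondrial ribosome held 21.2% of the summed TPM in P2, 28.2% in P3 and 1.62% in wild type. Values were given for 5 of the 7 genes of this list, and 5 of 5 were past 1.5-fold higher in each phenotype, where 58.3% of all genes were. Their median log2 ratio was 3.93 in P2 and 4.17 in P3, against 1.30 and 1.32 over all genes. In the small subunit, rps12, whose protein lines the decoding site in bacteria, had 61658 TPM in P2, 65618 TPM in P3 and 3649 TPM in wild type. It was the gene of rank 5 in P2, rank 3 in P3 and rank 15 in wild type. The rps4 gene, for a protein that binds rRNA early in the assembly of the bacterial small subunit, had 27925 TPM in P2, 37677 TPM in P3 and 1836 TPM in wild type. Both genes were over 10-fold above wild type in each phenotype, at 16.9-fold and 18.0-fold for rps12 and 15.2-fold and 20.5-fold for rps4. The third gene, rps7, for a protein of the head of the small subunit, had 10182 TPM in P2, 10337 TPM in P3 and 4803 TPM in wild type. Its log2 ratios of 1.08 and 1.11 were below those of the median gene.

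In the large subunit, rpl16 had 85059 TPM in P2, 138128 TPM in P3 and 2335 TPM in wild type. Its protein lies near the tRNA sites of the bacterial ribosome. It moved to rank 3 in P2 and rank 2 in P3, against rank 17 in wild type. The rpl5 gene, for a protein that binds 5S rRNA, had 27662 TPM in P2, 30425 TPM in P3 and 3565 TPM in wild type. The large-subunit pair held 11.3% of the TPM in P2, 16.9% in P3 and 0.590% in wild type, and the 3 small-subunit genes held 9.98%, 11.4% and 1.03%. The rpl16 level carries a limit described with the reading frames below.

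The matR gene codes for a maturase that acts in the splicing of group II introns and lies within an intron of nad1. It had 13538 TPM in P2, 21283 TPM in P3 and 220 TPM in wild type, where it was the lowest of all genes. The tatC gene, for a component of a twin-arginine protein transporter, had 10480 TPM in P2, 16497 TPM in P3 and 1105 TPM in wild type. Both were higher in the mutant, matR by 61.5-fold in P2 and 96.7-fold in P3 and tatC by 9.48-fold and 14.9-fold. The matR ratios are uncertain, as they rest on the lowest wild-type level. In P3 its reads were also nearly even over the frames, at 35.0%, 32.5% and 32.5%. Frame 0 held 39.7% of them in P2 and 42.9% in wild type. How many of these reads came from translating ribosomes was not tested.

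The genes for cytochrome c maturation held 2.16% of the TPM in P2, 2.75% in P3 and 0.571% in wild type. The 4 genes with values were past 1.5-fold higher in both phenotypes, as were 58.3% of all genes. Their median log2 ratio was 1.93 in P2 and 2.33 in P3, against 1.30 and 1.32 over all genes. With median-of-ratios scaling 2 of the 4 passed in P2 and 4 in P3, and per mitochondrial read outside tRNA and rRNA 0 of 4 passed in either phenotype, with medians of 0.084 and 0.26. Among them, ccmB and ccmC code for membrane proteins of the heme delivery step. The ccmB level was 2815 TPM in P2, 4431 TPM in P3 and 711 TPM in wild type, and the ccmC level was 8541, 9583 and 2312 TPM. The genes ccmFN1 and ccmFN2 code for parts of the heme lyase, which in this plant is split over several genes. The ccmFN1 level was 5454 TPM in P2, 5919 TPM in P3 and 1160 TPM in wild type, and that of ccmFN2 was 4796, 7550 and 1525 TPM. In each mutant library these 4 genes still had the lowest ranks of all, from 21 to 24.

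**Figure D3:**
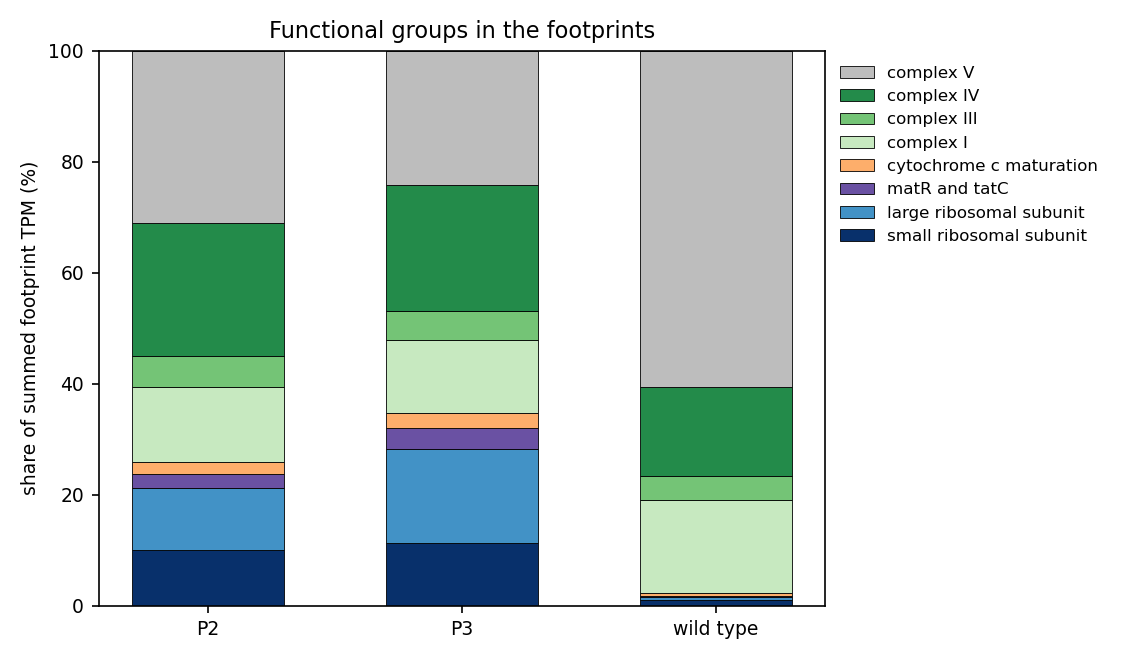
Share of each functional group in the summed footprint TPM (%), as stacked bars for P2, P3 and wild type, 1 library each. Ribosomal subunits (blue) hold 21.2% in P2 and 28.2% in P3, against 1.62% in wild type, and complex V (grey) holds 31.0%, 24.2% and 60.6%. Within the ribosomal share rpl16, whose level is uncertain, holds 8.51% in P2, 13.8% in P3 and 0.233% in wild type.

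The footprints on ATP synthase genes (complex V) were the main counterpart, with 31.0% of the TPM in P2, 24.2% in P3 and 60.6% in wild type. The atp9 gene, for the c-ring subunit of the rotor, had 99971 TPM in P2, 63849 TPM in P3 and 248628 TPM in wild type. The atp1 gene, for the alpha subunit of the catalytic head, had 76482 TPM in P2, 64181 TPM in P3 and 154323 TPM in wild type. In wild type atp9 stood 1.61-fold above atp1 per length, and this ratio was 1.31 in P2 and 0.995 in P3, so that the pair was level in P3. The atp4 gene, for a subunit of the peripheral stalk, had 25862 TPM in P2, 16678 TPM in P3 and 83291 TPM in wild type, the lowest ratios of all 24 genes (log2 -1.69 and -2.32). The atp8 gene, for a small subunit at the membrane, had 27317 TPM in P2, 21378 TPM in P3 and 53410 TPM in wild type. The ratio of atp8 to atp1 was 0.357 in P2, 0.333 in P3 and 0.346 in wild type, and that of atp4 to atp1 was 0.338, 0.260 and 0.540.

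The subunit a of ATP synthase is coded by 2 copies that share much of their sequence, so the counting could divide reads between them. The copy atp6.1 had 53707 TPM in P2, 45837 TPM in P3 and 58296 TPM in wild type, and atp6.2 had 26307, 29667 and 7876 TPM. Summed, they had 80015 TPM in P2, 75504 TPM in P3 and 66172 TPM in wild type, a log2 ratio of 0.27 in P2 and 0.19 in P3. Unlike atp1, atp4, atp8 and atp9, the summed copies were not past 1.5-fold in either direction.

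Within complexes I and IV of the respiratory chain, genes differed in direction. Complex IV, cytochrome c oxidase, had values for 2 of its 3 genes. The cox3 gene, for a core subunit, had 189461 TPM in P2, 189713 TPM in P3 and 65924 TPM in wild type, and cox1, for the catalytic subunit, had 51493, 37562 and 95339 TPM. Per length, footprints on cox3 were 3.68-fold those on cox1 in P2, 5.05-fold in P3 and 0.691-fold in wild type. A pair of genes for subunits of the same enzyme thus changed order. For cob of complex III, which codes for cytochrome b, the levels were 55337 TPM in P2, 51607 TPM in P3 and 43080 TPM in wild type, within 1.5-fold.

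In complex I, the NADH dehydrogenase, values were given for 4 of 9 genes. The membrane-arm genes nad3 and nad4L were lower. The nad3 level was 22248 TPM in P2, 17203 TPM in P3 and 66237 TPM in wild type, and the nad4L level was 11865, 9938 and 20459 TPM. Another membrane-arm gene, nad6, was higher, with 53949 TPM in P2, 56646 TPM in P3 and 28436 TPM in wild type. The nad9 gene, for a subunit of the peripheral arm, had 47890 TPM in P2, 48293 TPM in P3 and 51479 TPM in wild type. Among lower genes past 1.5-fold, nad4L in P2 (log2 -0.79) lay nearest to the threshold of 0.58, and among higher ones nad6 in P2 (0.92), and the nearest outside it were cob in P2 (0.36) and atp6.1 in P3 (-0.35).

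Neighbours in the genome did not always share a direction. In the TAIR10.1 gene table nad3 and rps12 lie next to each other, and nad3 was lower and rps12 higher in both phenotypes. Per length, footprints on rps12 were 2.77-fold those on nad3 in P2, 3.81-fold in P3 and 0.0551-fold in wild type. By TPM the neighbours cob and rpl5 were both above wild type, cob within 1.5-fold. On each of the other scales given below, cob was under wild type in both phenotypes (log2 -0.94 and -1.05 with median-of-ratios scaling). The TPM ratio of rpl5 over cob was 0.500 in P2, 0.590 in P3 and 0.0828 in wild type. The nad4L gene lies between cox3 and atp4 in this table. Of these, cox3 was higher in both phenotypes (log2 1.52 and 1.52), while nad4L (-0.79 and -1.04) and atp4 (-1.69 and -2.32) were lower.

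Because TPM fix the total of each library, the ratios were also set on 4 other scales. Dividing by the median ratio shifted all log2 ratios by -1.30 in P2 and -1.32 in P3. It left 8 genes (33.3%) above and 10 (41.7%) below wild type by the rule in P2, and 11 (45.8%) above and 10 (41.7%) below in P3. Multiplying by CDS reads per nuclear-genome read shifted them by -0.46 and -0.73. In P2 13 genes (54.2%) were then higher and 7 (29.2%) lower, against 12 (50%) and 9 (37.5%) in P3. With CDS reads per mitochondrial read outside tRNA and rRNA the shift was -1.85 and -2.07, and 6 genes (25%) stood above and 12 (50%) below wild type in each phenotype. With CDS reads per read after trimming the shift was -3.34 and -3.72. In that case 3 genes (12.5%) were higher in each phenotype, while 18 (75%) were lower in P2 and 19 (79.2%) in P3. On all 5 scales the same 7 genes, atp1, atp4, atp8, atp9, cox1, nad3 and nad4L, were past 1.5-fold lower in P2 and in P3. This was fixed in advance, since all 4 shifts were downward and a gene lower by TPM could only fall further. On all 5 scales 3 genes were past 1.5-fold higher in P2 (matR, rpl16 and rps12) and 3 in P3 (matR, rpl16 and rps4). For the remaining genes called higher by TPM the call depended on the scale. Per read after trimming, all 4 cytochrome c maturation genes, rpl5, rps7, nad6, cox3 and atp6.2 were below wild type in both phenotypes, and tatC was below it in P2. For these genes a larger part of the TPM thus went with a lower value on this scale. The scaled value is TPM multiplied by the CDS reads of the whole library per read. It is not a count of the gene's own reads, since coding lengths were not used.

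**Figure D4:**
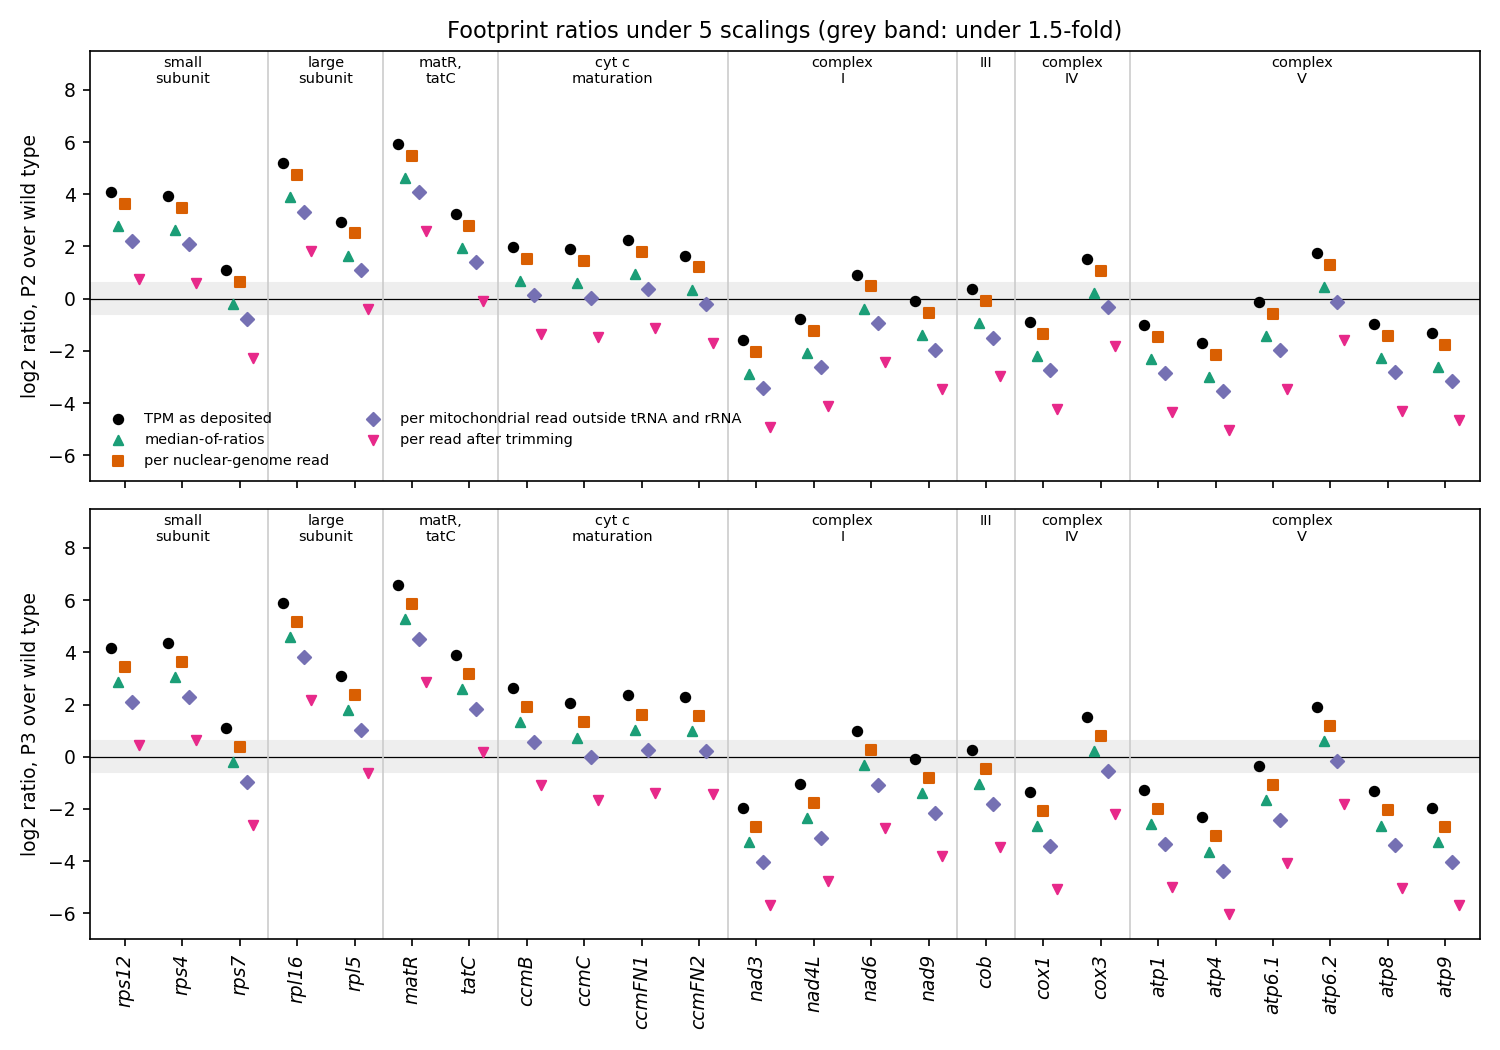
Log2 ratio of footprints over wild type for each gene in P2 (upper panel) and P3 (lower panel), on 5 scales shown by marker, with 1 library per group. The grey band marks ratios under 1.5-fold. All markers of atp1, atp4, atp8, atp9, cox1, nad3 and nad4L lie below the band, and all markers of matR and rpl16 lie above it in both panels. The other scales shift every ratio down from its TPM value, so genes below the band by TPM could not leave it.

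Reading frames were given for 140 features, as the share of footprints in each frame, with 33.3% for an even spread. They comprise the 24 genes with TPM, 32 exons of 9 further genes that contain introns, and 84 other open reading frames (ORFs). Footprints were less concentrated in frame 0 in the mutant. Over the 24 genes the median frame 0 share was 47.0% in P2, 45.0% in P3 and 59.2% in wild type. The share was below wild type in 24 of 24 genes in each phenotype (100%), with a median difference of -12.1 percentage points in P2 and -11.3 points in P3. The median share of frame 1 was 28.2% in P2, 29.8% in P3 and 19.6% in wild type, and that of frame 2 was 25.7%, 24.3% and 21.8%. Frame 1 was higher than in wild type for 22 of 24 genes in each phenotype. How many footprints stand behind a gene's frame shares was not given, so no interval accompanies them, and the mutant libraries had fewer CDS reads in all.

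Genes differed in how much frame 0 they kept. The gene with the highest TPM in both mutant libraries, cox3, had 55.7% in frame 0 in P2, 57.2% in P3 and 59.2% in wild type. For atp8 the shares were 55.2%, 59.3% and 61.1%. At the other end, rps7 had 48.6% in P2, 45.6% in P3 and 70.0% in wild type. For nad3 the shares were 44.4%, 36.7% and 63.3%, and for atp9 they were 40.7%, 35.1% and 55.9%. In atp9 frame 1 (36.2%) passed frame 0 in P3. The 14 genes with a higher level in the mutant had a median frame 0 difference of -9.4 points in P2 and -9.1 points in P3, and the 7 genes with a lower level had -14.6 and -16.4 points. The 3 genes within 1.5-fold had -13.6 and -10.9 points. In wild type the median frame 0 share was 56.1% for the higher genes, 60.0% for the lower and 59.6% for these 3. A link between level and frame was not tested.

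A few genes had a weak frame 0. Footprints on matR had 39.7% in frame 0 in P2, 35.0% in P3 and 42.9% in wild type, and ccmFN2 had 35.3%, 31.3% and 52.9%. In ccmFN2 frame 2 led in P2 (40.0%) and frame 1 in P3 (44.6%). The rpl16 gene was the 1 gene of the 24 in which frame 0 did not lead in wild type either. Its frame 1 held 61.4% in P2, 65.3% in P3 and 48.1% in wild type, and its frame 0 held 23.9%, 23.1% and 27.7%. In the TAIR10.1 table this gene overlaps rps3, and how reads in the overlap were assigned is not stated, so its level is uncertain. By contrast rps12 (49.1%, 52.3% and 57.7%) and rps4 (51.2%, 52.0% and 62.1%), whose levels were far above wild type, were led by frame 0 in every library.

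In the mutant, exons of intron-containing genes had a lower frame 0 share than intronless genes. Plant mitochondrial introns are mainly of group II, and in nad1, nad2 and nad5 some exons are joined from separate transcripts. Over the 32 exons the median frame 0 share was 35.6% in P2, 33.3% in P3 and 56.4% in wild type. Frame 0 was lower than in wild type in 30 of 32 exons in P2 (93.8%) and in 31 of 32 in P3 (96.9%), with median differences of -18.9 and -17.4 points. Over genes and exons together it was lower in 54 of 56 features in P2 (96.4%) and in 55 of 56 in P3 (98.2%). Frame 0 was the leading frame in 14 exons in P2, 13 in P3 and 26 in wild type. Among the 24 intronless genes it led in 22 in P2, 21 in P3 and 23 in wild type. The medians of exons and intronless genes thus lay closer together in wild type than in either mutant library. The difference has no test, and the depth of single exons is unknown.

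**Figure D5:**
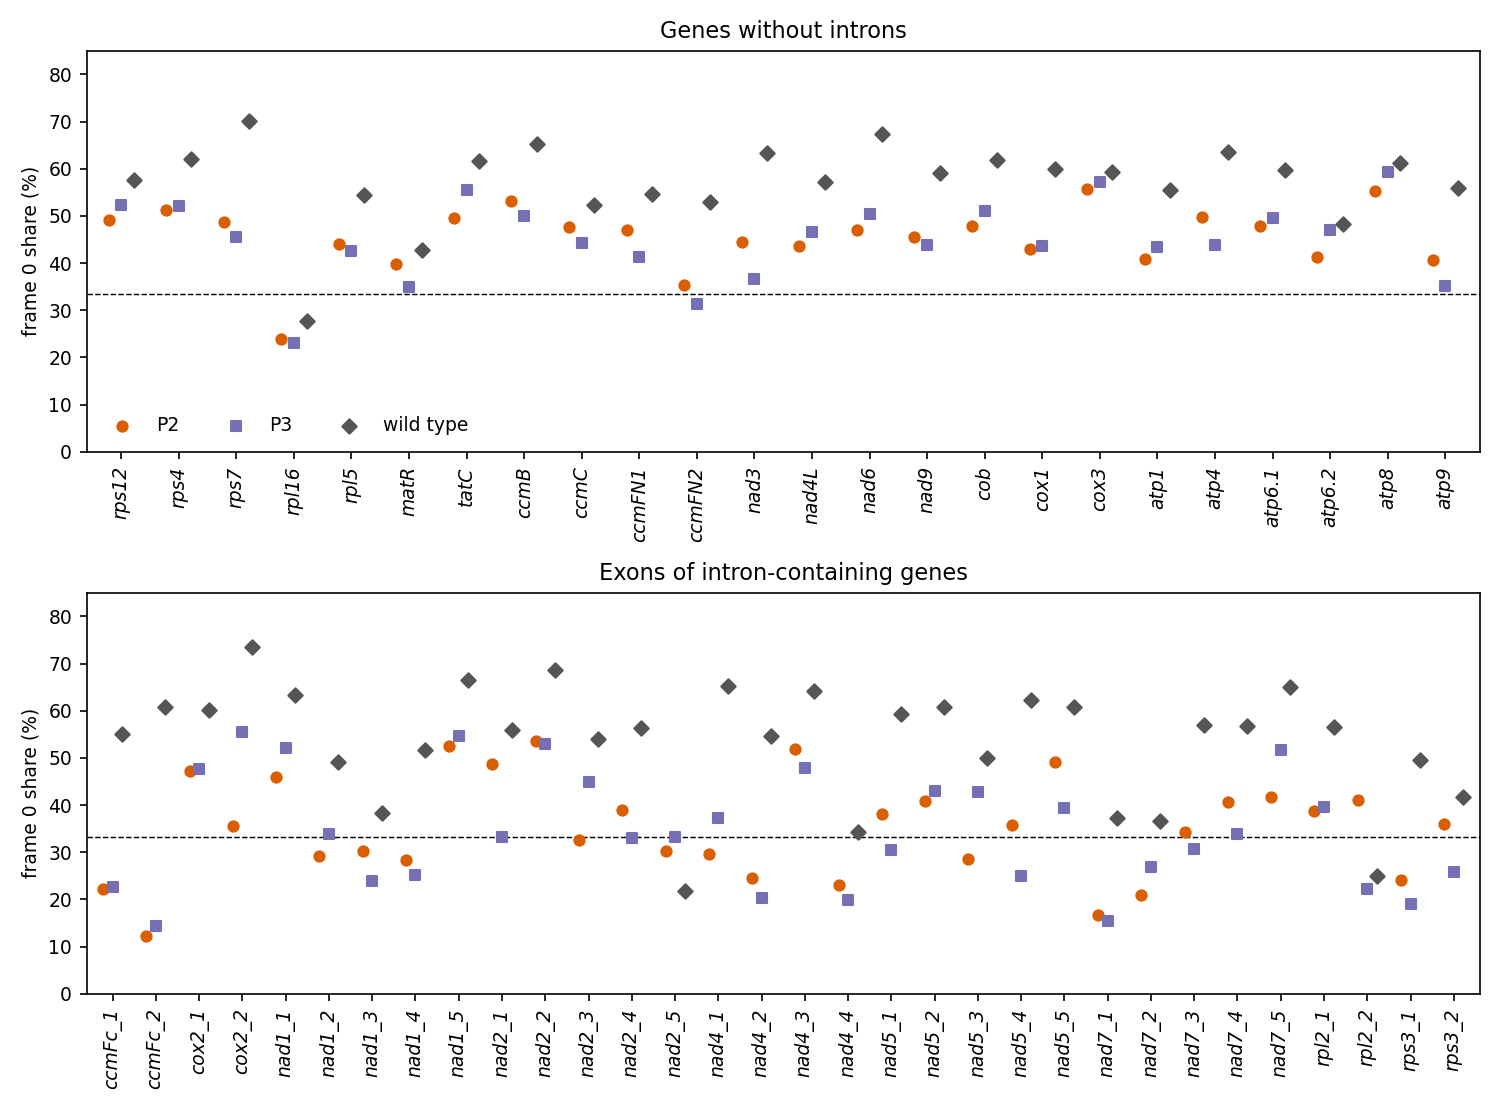
Share of footprints in frame 0 (%) for the 24 genes with TPM (upper panel) and the 32 exons of intron-containing genes (lower panel). Circles are P2, squares P3 and diamonds wild type, 1 library each, and the dashed line marks the even share of 33.3%. All 24 genes lie below their wild-type value in both mutant libraries, and 14 exons in P2 and 15 in P3 lie below the line, against 2 in wild type.

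The exons with the greatest loss of frame 0 belonged to several genes. In ccmFc, which codes for another part of the heme lyase, exon 2 had 12.3% in frame 0 in P2, 14.4% in P3 and 60.7% in wild type. Most of its mutant footprints lay in frame 2 (59.7% in P2 and 57.2% in P3, against 17.6% in wild type). Exon 1 of ccmFc had 22.2% in frame 0 in P2, 22.7% in P3 and 55.1% in wild type. Both exons of this gene thus lost frame 0 as their leading frame in both phenotypes.

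In nad4, a subunit gene of complex I with introns joined within 1 transcript, exon 1 had 29.6% in frame 0 in P2, 37.3% in P3 and 65.2% in wild type. Exon 2 had 24.5%, 20.4% and 54.5%, and exon 3 kept frame 0 as its leading frame (52.0%, 47.9% and 64.3%). The last exon of nad4 had frame 2 in the lead in all 3 libraries (66.2%, 68.8% and 51.8%). In nad7, the first exon had 16.7% in frame 0 in P2, 15.4% in P3 and 37.3% in wild type, and frame 1 led in each library (60.9%, 60.3% and 42.0%). The middle exon 3 of nad7 had frame 2 in the lead in the mutant libraries (53.7% in P2 and 59.8% in P3) and frame 0 in wild type (57.0%).

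In the trans-spliced genes the exons of 1 gene differed. The first exon of nad1 had 46.0% in frame 0 in P2, 52.1% in P3 and 63.4% in wild type, and its last exon had 52.4%, 54.6% and 66.5%. Exon 4 of nad1 had 28.5%, 25.1% and 51.7%, with frame 1 in the lead in both mutant libraries (45.6% and 46.0%). In nad2, exon 2 kept 53.6% in P2 and 53.0% in P3, against 68.7% in wild type. Its last exon went the other way in frame 0, with 30.2%, 33.3% and 21.7%. It was the 1 exon with a frame 0 share above wild type in both phenotypes. Frame 2 led this exon in each library, with a lower share in the mutant (35.8% in P2, 40.0% in P3 and 58.5% in wild type). In nad5, exon 4 had 35.7% in P2, 24.9% in P3 and 62.4% in wild type. For the very short exon 3 of nad5, frames 0 and 1 were tied at 50.0% in wild type.

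Exons of ribosomal and oxidase genes completed the list. Exon 1 of rps3 had 24.1% in frame 0 in P2, 19.0% in P3 and 49.6% in wild type. Exon 2 of rps3 had 36.1%, 25.8% and 41.7%. In cox2, exon 1 had 47.3%, 47.6% and 60.2%, and exon 2 had 35.6%, 55.4% and 73.6%, so that exon 2 was led by frame 1 in P2 (38.1%) and by frame 0 in P3 and wild type. In rpl2, exon 1 had 38.7%, 39.5% and 56.5%. The rps3 and rpl2 genes had no TPM, so their levels were not analysed here.

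Other ORFs of the mitochondrial genome had frame shares more often in the mutant libraries. Of 84 such ORFs, 74 had values in P2, 70 in P3 and 48 in wild type, and 25 that had none in wild type had them in both mutant libraries. Mitochondrial-genome reads outside CDS, tRNA and rRNA were also more numerous in the mutant libraries, which had more reads in all. They numbered 381814 in P2, 278786 in P3 and 248905 in wild type. As a share of reads after trimming they were lower in the mutant, at 2.52% in P2, 2.33% in P3 and 3.21% in wild type. The part that read numbers had in the ORF counts was not tested. Many of the frame shares are at an extreme. The frame 0 share was exactly 0 or 100% in 22 of 74 ORFs in P2, 22 of 70 in P3 and 25 of 48 in wild type, which limits what can be read from single ORFs. Over those with values, which differ between libraries, the median frame 0 share was 33.3% in P2, 28.8% in P3 and 46.3% in wild type. Among the 44 ORFs with values in both P2 and wild type, frame 0 was lower in 27 and higher in 13, with a median difference of -4.69 points. Among the 43 shared by P3 and wild type it was lower in 24 and higher in 16, with a median difference of -4.17 points. In 17 ORFs all 3 frames were above 0 in every library. The same frame led in all libraries in 8 of these, frame 0 in 5 (ORF110A, ORF114, ORF145C, ORF149 and ORF291) and frame 2 in 3 (ORF107G, ORF107H and ORF315).

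Among these 17 ORFs, some had frame 0 shares in the mutant close to those of wild type. The frame 0 share of ORF145C was 46.2% in P2, 49.2% in P3 and 44.2% in wild type, and that of ORF149 was 45.2%, 50.4% and 46.5%. Others were far from it. The frame 0 share of ORF313 was 15.1% in P2, 25.9% in P3 and 58.6% in wild type, and that of ORF262 was 29.2%, 28.9% and 55.6%. The frame 2 footprints of ORF107G made up 87.4% in P2, 79.7% in P3 and 76.0% in wild type. These ORFs were picked for description after their values were seen.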

How the data were processed

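Footprint libraries of mitochondria from P2, P3 and wild-type leaves were analysed, grouped by library title. Per the submitters' processing notes STAR and featureCounts were used, with versions, settings, genome build and annotation not given in the sources used here. The authors deposited TPM for 24 genes, counts of reads per class of sequence, and the fraction of footprints in each frame for 140 features, per the file headers. The fraction beside each deposited read count was relative to reads after trimming, or to mitochondrial-genome reads other than tRNA and rRNA. The way frames were assigned is not stated.

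Ratios of TPM were taken as log2 values without a pseudocount, since no value was 0. Genes at least 1.5-fold apart were counted, and lists were described by counts and medians. Shares of reads carry 95% Wilson intervals. The gene table of TAIR10.1 (24 of 24 names matched, 21 by current symbol) gave only names and neighbours. Ratio calculations were checked on simulated data. All genes with TPM, the exons with the greatest and least frame 0 differences and features led by another frame may be named. Members and lists were chosen with earlier results of these data known. The analysis used Python 3.11.15, pandas 2.3.3, NumPy 2.4.6 and SciPy 1.17.1.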

Additional observations from a re-analysis of the deposited data

Results flagged for a closer look

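The frame 0 share of the second exon of rpl2 differed from wild type in opposite directions in the mutant phenotypes, by 16.2 percentage points in P2 and -2.78 points in P3. It stood at 41.2% in P2, 22.2% in P3 and 25.0% in wild type. Frame 0 led this exon in P2 only, while frame 1 led in wild type (50.0%) and frames 1 and 2 were tied in P3 (38.9%). With 1 library per group this difference between the phenotypes was not tested, and the number of footprints on the exon is unknown.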

How the results depend on the processing

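No paired analysis was possible because each group had 1 library and the labels gave no replicate numbers. Replicates could not be left out for the same reason. The alternative using coding lengths was not run, because the build of the files is not named. Scaling per nuclear-genome read, its use as a denominator and the exon set were chosen after seeing the data. Gene calls changed with scaling, and ratios in P2 and P3 rest on the same wild-type library.

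Genes called higher numbered 8 in P2 with median-of-ratios scaling, 6 in P2 and 6 in P3 per mitochondrial read outside tRNA and rRNA, and 3 and 3 per read after trimming. Genes called lower numbered 12 and 12 and then 18 and 19 on these last 2 scales, and 4 in P2 with a threshold of 2-fold. Counts stayed within 1.5 times under the other alternatives run.

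The median log2 ratio of ribosomal genes was, in P2 and P3, 2.62 and 2.85 with median-of-ratios scaling, 0.58 and 0.45 per read after trimming, 2.08 and 2.09 per mitochondrial read, 3.47 and 3.43 per nuclear read, 3.86 and 4.13 with a pseudocount of 100 TPM, 3.87 and 4.05 without the most abundant gene of each library, and 3.60 and 3.88 without atp6.1, atp6.2 and rpl16. In that order the median over the genes of complexes I, III, IV and V (OXPHOS) was -2.09 and -2.36, -4.13 and -4.77, -2.64 and -3.12, -1.24 and -1.78, -0.78 and -1.03, -0.84 and -1.16, and -0.73 and -1.02. A minimum mean of 1000 TPM left both medians as they were. The main values were 3.93 and 4.17 for ribosomal genes and -0.79 and -1.04 for OXPHOS.

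The median frame 0 difference was -13.5 points in P2 and -13.4 in P3 over all features, -18.6 and -17.0 for frame 0 minus the larger other frame, -12.2 and -11.8 without rpl16, and -18.9 and -17.4 over exons. The ratio of CDS reads to wild type was 0.277 in P2 and 0.237 in P3 per mitochondrial read outside tRNA and rRNA, 0.0701 and 0.0553 per mitochondrial read of any kind, 0.379 and 0.245 without mitochondrial tRNA and rRNA, and 0.728 and 0.601 per nuclear read.

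Single genes called higher turned lower in both phenotypes as follows, with P2 before P3. Median-of-ratios scaling did so for nad6 (-0.38 and -0.32) and rps7 (-0.22 and -0.21). Per mitochondrial read outside tRNA and rRNA it held for nad6 (-0.93 and -1.08), rps7 (-0.77 and -0.97), cox3 (-0.33 and -0.55) and atp6.2 (-0.11 and -0.16), for ccmFN2 in P2 (-0.20) and for ccmC in P3 (-0.023). Per read after trimming it held for nad6 (-2.42 and -2.73), rps7 (-2.26 and -2.62), cox3 (-1.82 and -2.20), atp6.2 (-1.60 and -1.81), ccmB (-1.36 and -1.08), ccmC (-1.46 and -1.67), ccmFN1 (-1.11 and -1.37), ccmFN2 (-1.69 and -1.42) and rpl5 (-0.39 and -0.63), and for tatC in P2 (-0.098). These shifts follow from the scaling factors themselves.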
